A study of Mus musculus with 18 samples.

Results

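Homeobox genes that lie outside the Hox clusters were followed in the histone methylation landscape of mouse embryonic stem (ES) cells. The set was a list of 40 genes from 10 families: 8 Lhx, 7 Nkx, 6 Dlx and 6 Irx genes, the 3 sine oculis relatives Six2, Six3 and Six6, and 2 genes each of the Msx, Gbx, En, Cdx and Pitx families. They were found by symbol among 21631 protein-coding genes on the 19 autosomes and chromosome X (RefSeq, GRCm38.p6), and all 40 were found. A start site was listed for 28 of the 40, among 17274 protein-coding genes with one. For the other 12 (Lhx5, Dlx3, Dlx4, Dlx5, Dlx6, Irx1, Irx5, Irx6, Gbx1, En2, Cdx1 and Pitx1) only the gene body and its surroundings were read.

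The cells were E14, 1 line of mouse ES cells, cultured in 2i/LIF, a medium that holds them in the naive state with LIF and blockers of 2 kinases, MEK and GSK3. It also held light, medium or heavy forms of arginine and lysine. Chromatin immunoprecipitation and sequencing (ChIP-seq) gave 18 libraries in 9 groups of 2. In 5 groups the cells were untreated and no foreign chromatin was added, and the antibodies were against H3K27me1, H3K27me2, H3K27me3, H3K36me2 or H3K36me3. In the remaining 4 groups cells received 10 µM EPZ-6438, an inhibitor of the methyltransferase EZH2, or DMSO alone for 7 days. There, Drosophila S2 chromatin was added at 0.05% of the total as a spike-in, and H3K27me3 or H3K36me2 was precipitated. Nothing in the labels says that the 2 libraries of a group came from separate cultures, so p-values rest on the spread between these libraries, which may be technical. The tests below, in limma, draw the spread of each gene toward that of all genes. Their p-values thus do not measure the spread at 1 locus alone. Estimated depth, in units of 1000000 mouse reads, was 17.3 to 50.9 in the untreated libraries and 38.2 to 84.4 for H3K36me2 with spike-in. It was 16.3 and 21.1 for H3K27me3 after DMSO, and 0.749 and 1.34 for H3K27me3 after the inhibitor. Of 8 genes of pluripotent cells, 7 had more H3K36me3 over the body than the median gene, Dppa5a did not, and 1 had more H3K27me3. Of 10 genes of differentiated cells, including Gata4, Sox17 and Pax6, 10 had more H3K27me3 than the median gene, and 6 also had more H3K36me3.

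Homeobox genes encode transcription factors that bind DNA through a homeodomain and assign position and cell type in the embryo. In ES cells most of them are silent and are textbook targets of Polycomb. Polycomb repressive complex 2 (PRC2), with EZH2 as its catalytic subunit, places H3K27me1, H3K27me2 and H3K27me3, and H3K27me3 is the form found at silenced developmental genes. H3K36me3 follows transcription over gene bodies, H3K36me2 covers wide tracts of chromatin, and both oppose PRC2 on the same histone tail. Neither RNA nor protein was measured here.

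The promoters of the 3 genes with the most H3K27me3 in untreated cells and of the 3 with the least are shown, since they are the ends of the range described below. Each runs from 250 bases before the start site to 50 bases after it (RefSeq, GRCm38.p6), 5′ to 3′ on the strand of the gene, with CpG dinucleotides in capitals.
Nkx2-1 (chr12:56536859-56537158, minus strand): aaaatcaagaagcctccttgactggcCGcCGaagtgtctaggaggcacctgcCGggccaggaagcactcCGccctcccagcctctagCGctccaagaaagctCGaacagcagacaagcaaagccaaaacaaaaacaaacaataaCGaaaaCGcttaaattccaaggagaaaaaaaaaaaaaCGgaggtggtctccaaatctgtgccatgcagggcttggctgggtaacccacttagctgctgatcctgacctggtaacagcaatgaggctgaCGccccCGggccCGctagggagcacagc
Nkx2-5 (chr17:26841516-26841815, minus strand): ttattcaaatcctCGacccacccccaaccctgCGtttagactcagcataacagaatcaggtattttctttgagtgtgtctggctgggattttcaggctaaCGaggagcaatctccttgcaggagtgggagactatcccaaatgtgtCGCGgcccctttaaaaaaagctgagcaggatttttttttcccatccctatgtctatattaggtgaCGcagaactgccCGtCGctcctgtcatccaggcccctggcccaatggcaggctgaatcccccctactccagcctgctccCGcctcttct
Cdx2 (chr5:147307200-147307499, minus strand): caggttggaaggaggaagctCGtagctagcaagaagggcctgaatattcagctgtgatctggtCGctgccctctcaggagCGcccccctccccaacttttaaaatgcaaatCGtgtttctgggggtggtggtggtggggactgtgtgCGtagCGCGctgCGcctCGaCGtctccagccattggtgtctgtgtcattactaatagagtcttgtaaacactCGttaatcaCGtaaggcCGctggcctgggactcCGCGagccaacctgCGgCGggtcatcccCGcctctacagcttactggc
Msx1 (chr5:37824536-37824835, minus strand): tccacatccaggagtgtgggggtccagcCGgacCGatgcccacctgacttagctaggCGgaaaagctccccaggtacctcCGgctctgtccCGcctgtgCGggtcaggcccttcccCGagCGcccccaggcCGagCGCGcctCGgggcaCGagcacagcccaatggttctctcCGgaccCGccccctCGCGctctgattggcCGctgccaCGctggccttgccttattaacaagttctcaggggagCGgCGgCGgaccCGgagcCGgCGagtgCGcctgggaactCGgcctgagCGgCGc
Irx2 (chr13:72628570-72628869, plus strand): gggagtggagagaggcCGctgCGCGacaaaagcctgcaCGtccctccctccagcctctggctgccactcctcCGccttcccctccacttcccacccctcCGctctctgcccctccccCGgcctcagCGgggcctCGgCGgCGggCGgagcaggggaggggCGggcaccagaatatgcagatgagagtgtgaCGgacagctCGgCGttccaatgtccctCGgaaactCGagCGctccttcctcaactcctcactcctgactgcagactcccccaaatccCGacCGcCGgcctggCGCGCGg
Gbx2 (chr1:89931127-89931426, minus strand): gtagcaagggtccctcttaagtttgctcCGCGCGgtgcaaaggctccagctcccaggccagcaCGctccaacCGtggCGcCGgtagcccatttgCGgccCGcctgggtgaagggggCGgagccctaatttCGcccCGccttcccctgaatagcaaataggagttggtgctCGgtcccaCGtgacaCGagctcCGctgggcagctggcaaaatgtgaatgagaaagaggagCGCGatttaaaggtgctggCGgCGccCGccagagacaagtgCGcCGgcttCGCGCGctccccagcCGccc

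The 3 promoters with the most H3K27me3 held fewer CpGs (12 in Nkx2-1, 9 in Nkx2-5 and 18 in Cdx2) than the 3 with the least (29 in Msx1, 25 in Irx2 and 27 in Gbx2). Over all 28 promoters, however, the CpG count did not follow the mark (Spearman rho -0.02 across genes, given as a description). The median was 20 CpGs in 300 bases, from 4 (Lhx8) to 40 (Nkx6-1), against a median of 14 over 17274 protein-coding promoters. The median ratio of observed to expected CpG was 0.75, against 0.59. Of the 28 promoters, 21 had more CpGs than the median promoter. The TATA box motif TATAAA occurred on either strand in 1 of 28 (Lhx3; 13.4% of all promoters). The homeodomain core motif TAATTA, which reads the same on both strands, occurred in 1 of 28 (Msx2; 4.61% of all promoters). Neither motif contains a CpG or overlaps the other.

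In untreated cells the 28 promoters carried far more H3K27me3 than the median gene, and the other 4 marks were much closer to the genome level. Levels are given as enrichment, the mean reads per 1 kb window divided by the mean of the library, so 1 is the genome mean and genes can be compared per length. A promoter is the start site with 1 kb on each side. The median promoter enrichment of H3K27me3 was 10.5 and 10.4 in the 2 libraries, 10.4 ± 0.0307 (mean ± SD, n = 2), against 0.47 over all protein-coding promoters. All 28 exceeded the 75th percentile of all promoters (2.45), 26 of 28 the 90th (6.34), 19 the 95th (9.17) and 2 the 99th (13.6). Median H3K27me1 at the same promoters was 0.46 ± 0.20 against 0.94 for all genes. Median H3K27me2 was 0.57 ± 0.20 against 0.90, H3K36me2 1.39 ± 0.23 against 1.27, and H3K36me3 1.48 ± 0.02 against 1.05. The Polycomb state with 3 methyl groups was thus the one that was high, and the states with 1 and 2 methyl groups lay below the typical promoter.

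Nkx2-1, which directs thyroid, lung and ventral forebrain development, stood highest with 14.9 and 14.9. It was followed by the heart regulator Nkx2-5 with 12.9 and 14.5, and by Cdx2, the trophectoderm and intestinal regulator, with 12.9 and 13.9. Nkx2-5 and Cdx2 did not differ beyond the spread of their libraries. At the other end, Gbx2 had 2.24 and 3.0. It patterns the midbrain-hindbrain boundary and is also a known gene of the naive ES cell state. Irx2 had 2.59 and 3.61, which overlaps Gbx2, and the craniofacial and limb regulator Msx1 had 7.29 and 6.51. Between Irx2 and Msx1 lay the widest gap in the order, and every promoter other than Gbx2 and Irx2 was above 6.90 on average.

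Within families, promoters differed by different amounts. In the LIM-homeodomain family, Lhx2, a forebrain and eye regulator, had 12.7 and 13.4, and Lhx3, which specifies motor neurons and pituitary cells, had 6.78 and 7.26, with no overlap. In the Nkx family the lowest was Nkx2-9 of the ventral neural tube, with 9.18 and 9.47. The forebrain genes Dlx1 (8.04 and 8.48) and Dlx2 (6.2 and 8.01) lie beside each other and did not overlap, although Dlx2 varied between libraries by more than the gap. Six6 of the retina and pituitary had 13.0 and 12.9, which did not differ from Six2 (12.2 and 13.6) beyond its spread, and both lay above the anterior forebrain gene Six3 with 9.69 and 11.1. The Iroquois family spanned the widest range, from Irx2 to the ventricular heart gene Irx4 with 10.2 and 9.84. Msx1 and its relative Msx2 (5.73 and 8.11) did not differ beyond their spread. En1 of the midbrain-hindbrain region had 10.8 and 9.75, and Pitx3 of the lens and dopaminergic neurons had 9.49 and 10.0; each was the single promoter of its family with a listed start site.

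Over gene bodies, where all 40 genes could be read, H3K27me3 was again high, but the order of the genes was not that of the promoters. Lhx3, lowest of the Lhx promoters read, was among the highest here. Its promoter was read only at the most upstream of several listed start sites. The median body enrichment of H3K27me3 was 9.50 and 9.98 in the 2 libraries, against 0.56 for all genes, and 40 of 40 bodies exceeded the median gene. The highest were the motor neuron gene Lhx3 with 14.4 and 14.9, Lhx5, a forebrain and spinal interneuron regulator, with 14.7 and 14.2, and Nkx2-1 with 14.2 and 14.3. Lhx5 overlapped both of the others. Cdx1, which patterns the posterior axis, was lowest with 1.22 and 1.48, below Gbx2 with 2.56 and 2.47, Gbx1 with 3.29 and 3.37, and En2 with 3.58 and 4.14. These 4 did not overlap each other, but En2 overlapped the next genes in the order, Lhx8 (4.02 and 4.43), Irx2 (4.00 and 4.81) and Msx2 (4.13 and 6.25). The mark was a local elevation: the median body was 1.91 ± 0.02 (SD, n = 2) times as high as the median of the 10 kb flanks on both sides, and the body exceeded the flanks in 36 of 40 genes, against 43.7% of all genes. By family, the median body ranged from 2.92 in the Gbx pair to 11.7 in the 6 Dlx genes and 11.6 in the 6 Irx genes, with the 7 Nkx genes at 10.4 and the 8 Lhx genes at 8.15. The flanks themselves still stood at 5.09 ± 0.13, against 0.82 for all genes.

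**Figure D1:**
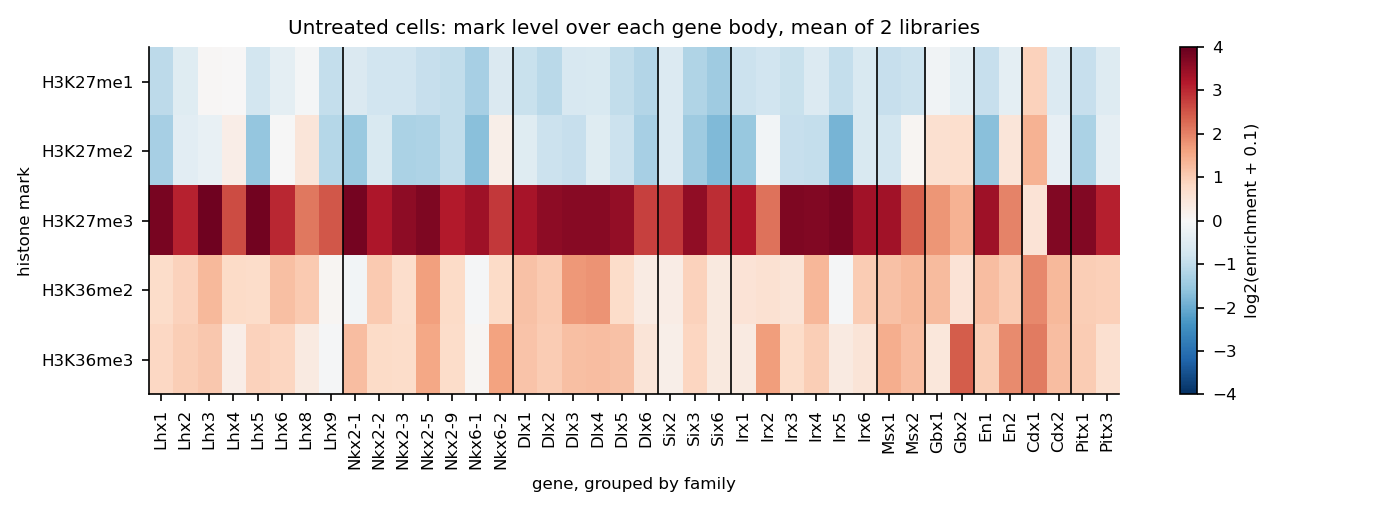
Enrichment of 5 histone marks over the body of each of the 40 genes in untreated cells. Each column is a gene, grouped by family with vertical lines between families, each row is a mark, and colour is log2 of the mean enrichment of 2 libraries plus 0.1 (0 is close to the genome mean). H3K27me3 is above the genome mean in every column and palest in Cdx1 (1.35), the column where H3K27me2 and H3K36me2 are strongest, and H3K36me3 is strongest in Gbx2 (5.26).

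The other marks separated a few genes from the rest. The 3 bodies with the most H3K36me3 were Gbx2 with 4.82 and 5.70, Cdx1 with 4.37 and 3.87, and En2 with 3.44 and 3.73, against a median of 1.78 over the 40 genes and 1.75 over all genes. These 3 were also among the 4 bodies with the least H3K27me3. In H3K36me3, Gbx2 stood above 83.7% of all genes and Cdx1 above 76.2%. Cdx1 also had the most H3K27me1 (1.84 and 1.74), H3K27me2 (2.72 and 2.35) and H3K36me2 (4.11 and 3.22) of the 40 bodies. Its locus holds 3 other protein-coding genes, Slc6a7, Gm52351 and Pdgfrb, and the locus of Gbx2 holds 1; their part in these levels was not tested. Across the 40 bodies, H3K27me2 was lower where H3K27me3 was higher (Spearman rho -0.60) and higher where H3K27me1 was higher (rho 0.76). H3K27me3 did not follow H3K36me2 (rho 0.04) or H3K36me3 (rho 0.04). These are descriptions across genes of the same libraries, with no test. At promoters, H3K36me3 at Nkx2-1 stood apart, with 4.40 and 7.29, a mean of 5.85 and a library spread of 2.05 (SD). Among the other 27 the highest mean was 2.99 (Nkx2-5) and the highest value in 1 library 3.23 (Gbx2).

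In the authors' peak lists, which hold peaks found in both untreated libraries of a mark, an H3K27me3 peak touched 40 of 40 bodies and covered 28 of 28 start sites, against 44.4% and 30.6% of all genes. It covered 37 of 40 bodies from end to end, against 12.2% of all bodies. The exceptions were Cdx1, covered over 36.6% of its body, Gbx1 over 73.2% and Lhx9, a gonad and limb regulator, over 73.3%. The 40 bodies lay in 36 distinct main peaks with a median length of 45.8 kb, against 7 kb for all 43094 peaks. Only 4.20% of all peaks were at least as long as that median. Six2, the nephron progenitor gene, and Six3 shared the longest, 269.5 kb, which ranked 20th by the authors' deposited score. Dlx1 with Dlx2, Dlx3 with Dlx4 and Dlx5 with Dlx6 also shared a peak each, so the paired genes are not independent of each other. The shortest main peak was that of Cdx1, 3.5 kb. Peaks of the lower methylation states were rare here: an H3K27me1 peak touched 2 of 40 bodies and an H3K27me2 peak 10 of 40, against 62.4% and 60.6% of all genes. An H3K36me2 peak touched 34 of 40, against 67.5%.

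At promoters, other homeobox genes had similar medians: 9.64 ± 1.18 over 22 Hox genes with a start site and 10.2 ± 0.36 over 54 further homeobox genes. An H3K27me3 peak covered 44 of those 54 start sites (81.5%), against 22 of 22 in the Hox genes and 28 of 28 in the set. Beyond the promoter, the Hox genes had a body median of 8.82, a flank median of 7.38 and 92.3% of bodies fully covered, and the further genes had less H3K27me3 than the set. Over 78 of them the median was 6.92 over bodies and 3.0 over flanks, against 9.74 and 5.09 in the set, and a peak covered 53.8% of their bodies from end to end, against 92.5%. These differences were not tested. At promoters, the highest of the further genes were Nkx1-1 (20.6), Uncx (19.9) and Hmx1 (17.7), and the lowest Tgif1 (0.10), Adnp (0.15) and Hdx (0.235). Tgif1 and Adnp, which are broadly expressed regulators, had body H3K36me3 of 4.43 and 5.19.

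After 7 days of EPZ-6438, H3K27me3 fell at all 40 loci on the spike-in scale. A locus is the gene body with 10 kb on each side, which was used because the inhibitor libraries are shallow, and the spike-in scale is the mean per window of reads multiplied by the authors' factor for the library. The median locus stood at 392 and 293 after DMSO and at 0.628 and 0.671 after the inhibitor. The mean of the 2 DMSO libraries was 528 times that of the 2 inhibitor libraries, and the corresponding value for the genome mean was 534. In limma with Benjamini-Hochberg adjustment over 21238 genes, 40 of 40 were lower at an adjusted p under 0.05. This count says nothing particular about them, since 21230 of 21238 genes (100% to 3 digits) were lower. In bulk chromatin, fewer cells with the mark and less of it per cell cannot be told apart.

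The size of the fall differed among the genes by more than 10-fold. At Nkx2-1, H3K27me3 on the spike-in scale was 449 and 347 after DMSO and 3.39 and 3.66 after the inhibitor, 113-fold lower. This was the smallest ratio of the 40. Lhx1, required in the head organizer and kidney, went from 495 and 373 to 2.50 and 3.50, 145-fold lower. Its relative Lhx5 went from 598 and 424 to 2.75 and 2.96, 179-fold lower. At the other end Nkx2-9 went from 161 and 144 to 0.0842 and 0.129, 1434-fold lower, and En2 from 250 and 162 to 0.186 and 0.133, 1290-fold lower. Irx2 (1136-fold) and Msx2 (1051-fold) were next. The order of these 4 depends on the library: against the first inhibitor library alone the ratio was 1817 for Nkx2-9, 1107 for En2, 800 for Irx2 and 1644 for Msx2, and against the second alone 1184, 1546, 1956 and 773. Their inhibitor values rest on 8 and 30 window reads (Nkx2-9), 20 and 35 (En2), 31 and 31 (Irx2) and 10 and 52 (Msx2), and those of Nkx2-1 on 350 and 925. A window read is a read counted once in each window it touches. The median ratio of the 40 genes was 477, against 408 over all genes tested and 1023 over 39 Hox genes.

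The limma changes on this scale, log2 of the value plus 1, ranged from -8.04 to -6.24 with a median of -7.44, against -4.95 over all genes. The added 1 limits the fall of genes that start low, and with 0.1 added the medians were -8.56 and -7.40. The 5 genes with the largest changes were En1 (-8.04, SE 0.24), Dlx1 (-8.02), Irx3 (-8.00), Dlx4 (-8.00) and Nkx2-3 (-7.96), each with an adjusted p of 5.19e-22. Cdx1, the gene with the least H3K27me3 to begin with, changed by -6.24 (SE 0.25, adjusted p = 2.18e-20).

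Relative to the library mean, the H3K27me3 signal of single loci moved in both directions. No input library was used, so the share of the inhibitor signal that is background was not measured, and all values below are of signal. On the enrichment scale, which sets each library's own mean to 1, the median of the 40 loci went from 8.06 and 8.22 after DMSO to 6.89 and 10.0 after the inhibitor, with overlap. The median over all genes went from 0.773 and 0.777 to 1.38 and 1.29. limma called 8 of 40 higher and 5 of 40 lower at an adjusted p under 0.05. The shares over all 21238 genes were 37.4% higher and 11.7% lower, and the median change was 0.31 for all genes and 0.18 for the 40, so a change is read against that shift. The share of the set called higher was thus below that of all genes and the share called lower was close to it. Without DMSO replicate 1 or without DMSO replicate 2, limma called 0 of 40 and 0 of 21238. The spread then comes from the 2 inhibitor libraries alone, the lone DMSO library is assumed to vary like them, and the changes themselves moved little (Lhx1, 1.85 and 1.89 against 1.87). At an unadjusted p under 0.05, 7 and 5 of the 40 and 6769 and 6884 of 21238 genes passed there. Without inhibitor replicate 1 it called 20 higher and 6 lower (48.3% and 24.6% of all genes), and without inhibitor replicate 2 it called 11 higher and 12 lower (49.3% and 24.4%). On promoters alone it also called 0 of 28 and 0 of 14137 genes, with 11 and 4697 at an unadjusted p under 0.05.

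The 5 largest increases were at Nkx2-1, Lhx1, Lhx5, Nkx6-1 and Six3. Nkx2-1 had the largest change: its locus stood at 9.22 and 9.72 after DMSO and at 37.2 and 54.8 after the inhibitor, a log2 change of 2.24 (SE 0.24, adjusted p = 0.00305). Lhx1 went from 10.2 and 10.4 to 27.4 and 52.3 (1.87, SE 0.33, adjusted p = 0.0102), and Lhx5 from 12.3 and 11.9 to 30.1 and 44.3 (1.59, SE 0.24, adjusted p = 0.00603). Nkx6-1, a regulator of pancreatic beta cells and ventral neural progenitors, went from 8.28 and 8.21 to 17.3 and 24.3 (1.30, adjusted p = 0.00869). Six3 went from 12.0 and 12.0 to 21.3 and 35.3 (1.19, adjusted p = 0.0223). In these 5 genes the arms did not overlap, and the second inhibitor library was the higher of the pair. Both inhibitor values lay above both DMSO values at 19 of the 40 loci (47.5%), against 51.0% of 21238 genes. Both lay below at 12 of the 40 (30%), against 27.9%. The other 3 called higher were Lhx4, a pituitary and motor neuron gene (0.94), Irx5 (0.93) and Lhx3 (0.71).

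The 5 loci called lower came from 5 families. Nkx2-9 went from 3.32 and 4.04 to 0.924 and 1.93 (log2 change -1.38, SE 0.36, adjusted p = 0.0306). En2, the midbrain-hindbrain relative of En1, went from 5.14 and 4.53 to 2.04 and 2.00 (-1.22, SE 0.17, adjusted p = 0.00488). Irx2 went from 4.77 and 4.71 to 2.74 and 1.53 (-1.17, adjusted p = 0.0287). Without inhibitor replicate 1 and without inhibitor replicate 2, the change was -0.89 and -1.88 at Nkx2-9 and -1.57 and -0.77 at Irx2. The placental gene Dlx4 (-0.80, adjusted p = 0.0223) and Pitx3 (-0.64, adjusted p = 0.0303) were the others. Msx2 had a change of -1.02 but did not pass (adjusted p = 0.152), with inhibitor values of 1.02 and 2.96. The remaining 27 genes did not pass the test, and their changes ranged from -1.02 (Msx2) to 0.78 (Nkx2-2, adjusted p = 0.0731).

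**Figure D2:**
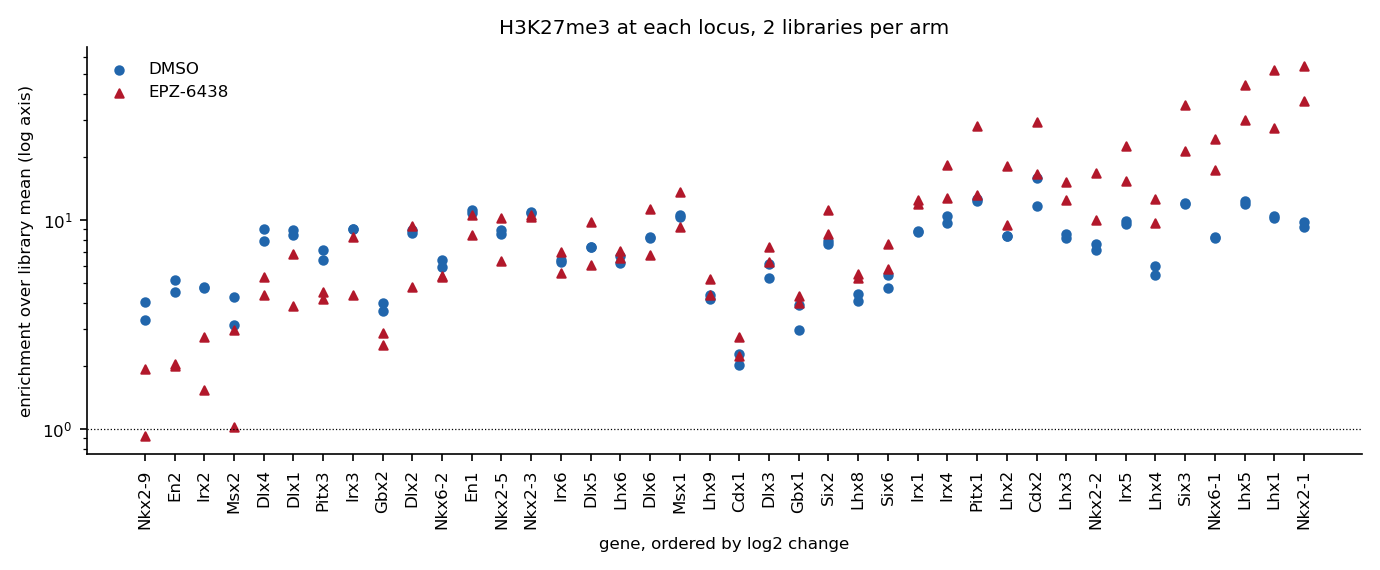
H3K27me3 at each of the 40 loci (body with 10 kb on each side) as enrichment over the library mean, on a log axis, with the 2 DMSO libraries as blue circles and the 2 EPZ-6438 libraries as red triangles; genes are ordered by log2 change and the dotted line is the genome mean. Inhibitor values lie below DMSO at the left end (Nkx2-9, 0.924 and 1.93 against 3.32 and 4.04) and above it at the right end (Nkx2-1, 37.2 and 54.8 against 9.22 and 9.72).

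Within families, members fell on both sides of the test, and differences between relatives were not themselves tested. En1 stood at 11.1 and 10.8 after DMSO and 8.48 and 10.6 after the inhibitor, and did not pass, whereas its relative En2 was called lower. Pitx1, a hindlimb and pituitary regulator, went from 12.5 and 12.4 to 13.2 and 28.2 and did not pass (0.63, adjusted p = 0.224), whereas Pitx3 was called lower. In the Iroquois family, which patterns the heart, limb and neural tube, Irx5 was called higher (9.84 and 9.52 to 15.4 and 22.5) and Irx2 lower, and the other 4 did not pass. The 6 Dlx genes ranged from -0.80 (Dlx4) to 0.26 (Dlx3), and those 2 are neighbours. Of the 8 Lhx genes, Lhx1, Lhx3, Lhx4 and Lhx5 were called higher and 0 lower, and Lhx6 had the smallest change, 0.08. Cdx1, with little H3K27me3 at the start, stood at 2.27 and 2.01 after DMSO and 2.22 and 2.76 after the inhibitor, and the arms overlapped. Gbx2 stood at 3.99 and 3.64 and then 2.89 and 2.51, with no overlap, and did not pass (-0.49, adjusted p = 0.0682).

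Nkx2-1 and Nkx2-9, the ends of this order, are neighbours on chromosome 12, with 74.5 kb between their bodies. In untreated cells they lie in separate H3K27me3 peaks of 38.0 and 8.0 kb. Around the Nkx2-1 start site, enrichment reached 26.4 and 25.2 after DMSO and 218 and 274 after the inhibitor, 3 kb inside the gene in both inhibitor libraries. Around Nkx2-9 it reached 15.996 and 12.8 after DMSO and 5.31 and 8.89 after the inhibitor. For the first inhibitor library the highest point near Nkx2-9 was 15 kb before the start site, at the level of 2 window reads.

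**Figure D3:**
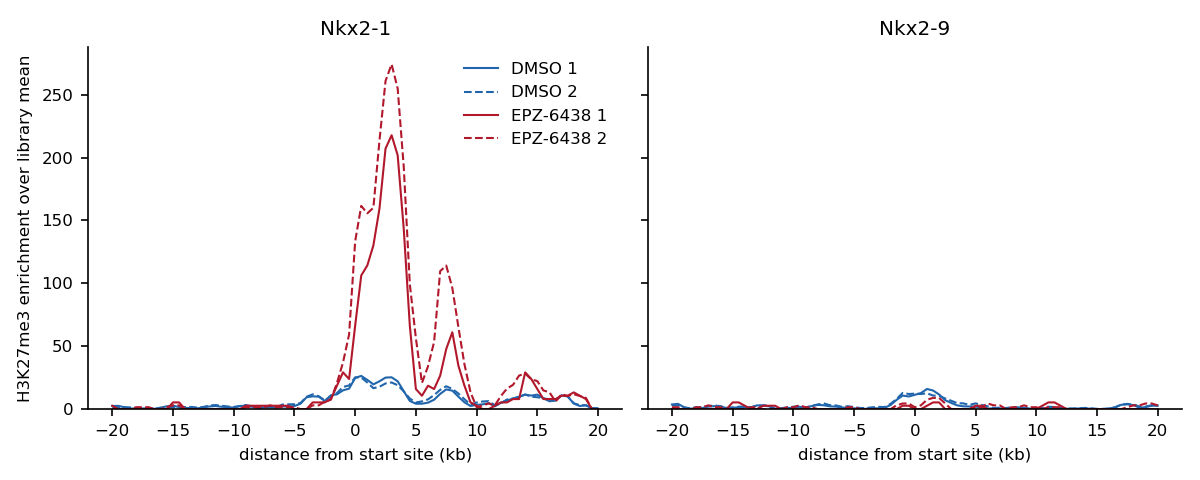
H3K27me3 enrichment over the library mean in 1 kb windows every 500 bp within 20 kb of the start sites of Nkx2-1 and Nkx2-9, oriented with transcription to the right; blue is DMSO and red EPZ-6438, with replicate 1 solid and replicate 2 dashed. The inhibitor libraries reach 218 and 274 at Nkx2-1 and stay at or below 8.89 around Nkx2-9, on the same axis.

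Promoters and bodies stood higher over their flanks after the inhibitor than after DMSO. The median of the 28 promoters was 2.46 and 2.42 times the median of their flanks after DMSO, and 4.82 and 5.49 times after the inhibitor. Over all protein-coding genes the ratio was 0.80 and 0.77 after DMSO and 1.00 and 1.18 after the inhibitor. For the 40 bodies the ratio to the flanks was 2.54 and 2.17 after DMSO and 3.75 and 4.55 after the inhibitor, against 0.77 and 0.73, and 1.00 and 1.07, over all genes. The 2 arms did not overlap in any of these ratios, but with 2 against 2 libraries the exact two-sided permutation test cannot go below the p of 0.333 that it gave. For the 78 further homeobox genes, body over flanks was also higher without overlap after the inhibitor, from 2.68 and 2.35 to 2.94 and 3.64, and for 54 of them promoter over flanks went from 4.35 and 3.64 to 4.74 and 6.94. For the 39 Hox genes, which lie packed within each other's flanks, body over flanks was 1.33 and 1.27 after DMSO and 1.43 and 1.35 after the inhibitor.

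Both sides of the ratio moved. Over flanks, the arms did not overlap and the inhibitor values were the lower in 22 of 40 genes (27% of all genes) and the higher in 6 (41.7% of all genes). Over bodies they were higher without overlap in 25 of 40 (46.3% of all genes) and lower in 5 (29% of all genes). At promoters they were higher in 15 of 28 (31.4% of all genes) and lower in 7 (27.9% of all genes). The median promoter held 21 window reads in the inhibitor libraries, against 2 over all genes, so the shares rest on unequal depth. In the further homeobox genes the inhibitor values were higher without overlap at 28 of 54 promoters (51.9%) and over 41 of 78 bodies (52.6%). They were lower at 10 promoters (18.5%) and over 27 bodies (34.6%). Over the flanks of these genes they were higher in 25 of 78 and lower in 31. In the Hox genes they were higher at 3 of 22 promoters and over 4 of 39 bodies, and lower at 15 and 25. Cdx2 had the highest promoter of the set, with 26.1 and 28.7 after DMSO and 98.2 and 156 after the inhibitor. Six3 went from 16.4 and 15.0 to 92.9 and 132, and Nkx2-1 from 21.3 and 21.9 to 65.1 and 110.4. Irx2 went from 4.82 and 5.90 to 0 and 0.741, with 0 and 1 window reads after the inhibitor, where a count of 0 allows an enrichment of up to 3.98 (3 reads, counting error only). Nkx2-9 went from 13.7 and 12.4 to 1.33 and 4.45. Promoters hold few reads in the inhibitor libraries, from 0 to 211 window reads.

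Gene by gene, the shift from flanks to body was not called. In limma on log2 body enrichment minus log2 flank enrichment, a comparison added after the data were seen, 0 of 40 and 0 of 21238 genes (0%) passed, although 32 of the 40 changes were above 0 with a median of 1.01, against 0.18 over all genes. At an unadjusted p under 0.05, 21 of the 40 and 6492 of 21238 genes passed. With genes limited to those with at least 10 window reads in every library, 9 of 39 passed, all of them higher, against 11.4% of 16712 genes. With 1 library left out, the count was 0 without DMSO replicate 1, 0 without DMSO replicate 2, 26 without inhibitor replicate 1 and 22 without inhibitor replicate 2. Over all genes the shares called there were 0%, 0%, 49.1% and 55.7%. These 9 were Lhx4 (2.21, SE 0.30), Nkx2-1 (2.00), Nkx2-3 (1.99), Nkx6-1 (1.94), Irx6 (1.79), Lhx5 (1.57), Cdx2 (1.53), Dlx5 (1.31) and Six3 (1.21).

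**Figure D4:**
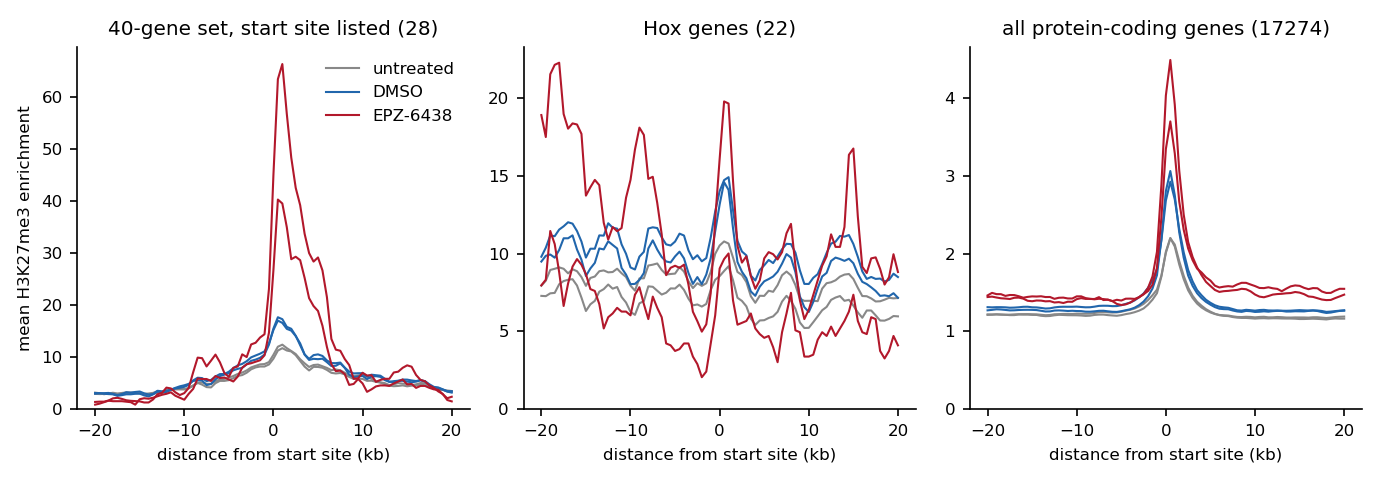
Mean H3K27me3 enrichment over the library mean within 20 kb of the start site, in 1 kb windows every 500 bp, with 1 line for each of 2 libraries per group (grey untreated, blue DMSO, red EPZ-6438); the vertical axes differ between panels. For the 28 genes of the set with a start site the inhibitor lines reach 40.3 and 66.4 near the start site, against 17.7 and 17.0 after DMSO. They fall below DMSO at 20 kb. These means are raised by the highest promoters: the median promoter stood at 14.4 and 14.3 after DMSO and 17.9 and 24.8 after the inhibitor. For 17274 genes the inhibitor lines reach 3.70 and 4.50 against 3.07 and 2.93.

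The order of the 40 enrichment changes was similar in the libraries numbered 1 and those numbered 2 (Spearman rho 0.87 across the 40 genes, a description), but their level was not: the median locus was lower after the inhibitor in the first pair (8.06 and 6.89) and higher in the second (8.22 and 10.0). Changes were higher where untreated H3K27me3 over the locus was higher (rho 0.41) and did not follow the CpG count of the promoter (rho -0.04 over 28 genes). The 39 Hox genes differed in their counts: limma called 0 higher and 19 lower, with a median change of -0.92. Of 78 further homeobox genes, 28 were called higher and 10 lower, with a median of 0.11. These lists were not tested against each other, and neighbouring Hox loci share windows.

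H3K36me2 was called changed at 0 of the 40 loci when the 2 arms were compared without regard to replicate number. On the spike-in scale limma called 0 of 40 and 0 of 21338 genes (0%). At an unadjusted p under 0.05 it found 0 of 40 and 175 of 21338. The SE was 0.49 at all 40 loci, because limma used a spread pooled over all genes there. limma-voom on the recovered reads also called 0. With the replicate number as a block some loci were called on both scales, as given below with the dependence on processing. The median locus stood at 587 and 390 after DMSO and 718 and 411 after the inhibitor, so replicates of 1 arm differed by more than the arms did. The 2 arms overlapped at all 40 loci: 0 had both inhibitor values above DMSO (5.22% of all genes), and 0 had both below (0.112%). The median change was 0.18, against 0.07 over all genes, and moved between -0.24 and 0.55 when 1 library was left out.

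On the enrichment scale, which removes the difference between whole libraries, limma also called 0 of 40 and 0 of 21338 genes (0%), with 8 and 6207 at an unadjusted p under 0.05. limma-voom called 97 genes, none of them among the 40. Without overlap, the inhibitor values were above DMSO in 7 of 40 genes (19.5% of all genes) and below in 16 (44.7% of all genes). The 5 largest changes upward were at Nkx6-1, from 0.677 and 0.718 to 0.877 and 0.920 (log2 change 0.32, SE 0.07, adjusted p = 0.115), and at Nkx2-9 (0.24), Six2 (0.22), Dlx5 (0.17) and Irx1 (0.16). The 5 largest downward were at Lhx3, from 2.65 and 2.80 to 1.96 and 2.31 (-0.34, SE 0.10, adjusted p = 0.139), and at En2 (-0.28), Gbx1 (-0.28), Irx4 (-0.25) and Cdx1 (-0.23). None passed the test. On bodies alone the sign was reversed at Nkx6-1, Dlx5 and Irx1, as given below with the dependence on processing. The 2 scales differ only by 1 factor per library, so the order of the genes is nearly the same on both by construction. On the spike-in scale those 10 ranged from -0.15 (Lhx3) to 0.57 (Nkx6-1).

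**Figure D5:**
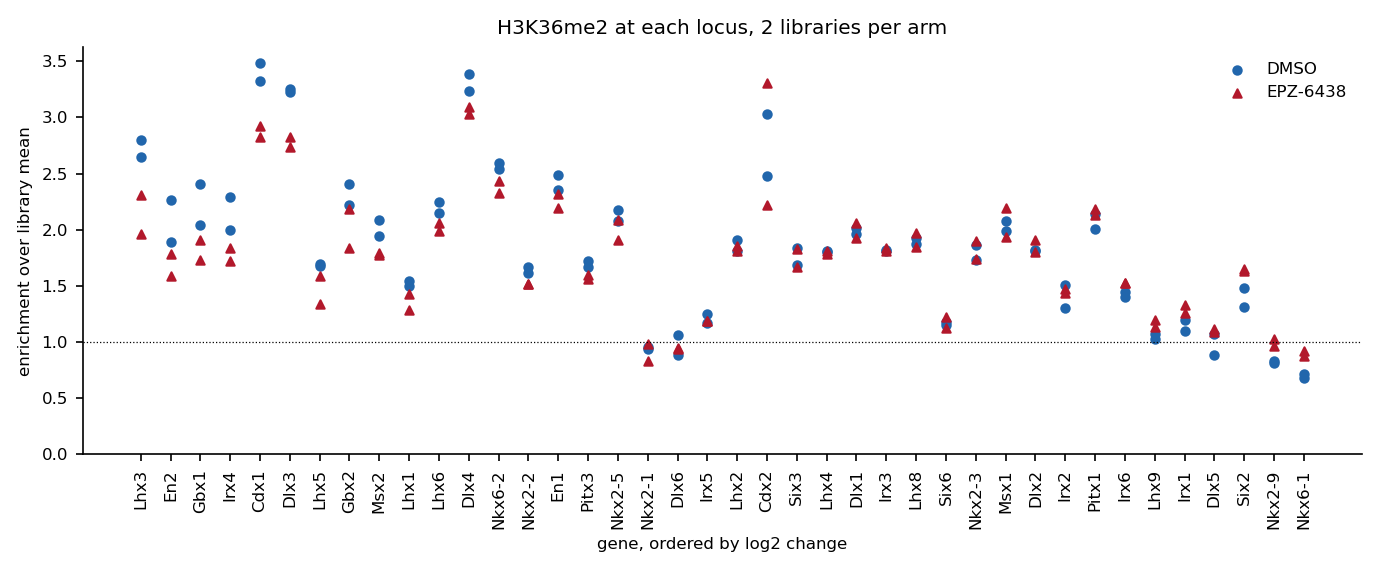
H3K36me2 at each of the 40 loci as enrichment over the library mean (linear axis from 0), with the 2 DMSO libraries as blue circles and the 2 EPZ-6438 libraries as red triangles; genes are ordered by log2 change and the dotted line is the genome mean. The loci at the left lie well above the genome mean and their inhibitor values are lower (Lhx3, 1.96 and 2.31 against 2.65 and 2.80). At the far right the inhibitor values are higher (Nkx6-1, 0.877 and 0.920 against 0.677 and 0.718). Several loci there lie near or below the genome mean, but Six2 lies above it (1.31 and 1.48 after DMSO). Most loci differ little.

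The H3K36me2 changes were more negative where untreated H3K36me2 was higher (rho -0.61 across the 40 loci) and likewise with untreated H3K36me3 (rho -0.64), H3K27me1 (rho -0.57) and H3K27me2 (rho -0.56), again as descriptions with no test. They did not follow the H3K27me3 changes (rho -0.04) or untreated H3K27me3 (rho 0.09). Over the 40 genes, median body over median flanks for H3K36me2 was 0.951 and 0.996 after DMSO and 0.894 and 0.947 after the inhibitor, and the body exceeded the flanks in 20 of 40 genes after DMSO and in 11 of 40 after the inhibitor (46.2% and 46.1% of all genes). In both libraries of an arm it did so in 15 and 10 genes.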

How the data were processed

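ChIP-seq signal was deposited by the authors as log2 of 1 plus a scaled read count, in 1 kb windows every 500 bp on mm10. The submitters' processing notes list Trim Galore 0.4.2, Bowtie2 2.2.6.2, SICER, mm10 and dm3, with no settings. Inverting the log2 gave whole reads for 100% of windows in every library. For untreated libraries 1 read is worth 1 per 1000000 reads, and for spike-in libraries the step was taken as the authors' factor, whose derivation is not given in the sources used here. Peak lists, with the score as deposited by the authors, list, for each of 4 marks, peaks that both untreated libraries share.

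Non-overlapping windows were averaged over promoters, bodies, flanks and loci. A window belonged to a region with at least 500 bp inside it. Where several start sites were listed (Lhx2, Lhx3, Lhx6), the most upstream was used. At some genes, among them Lhx4, Nkx2-2, Six3, Lhx9, Irx2 and Nkx2-5, it lay inside the gene body, away from its upstream end. Enrichment is the region mean over the library mean across 2633787 windows. DMSO and inhibitor libraries, 2 of each, were compared in limma 3.58.1 (R 4.3.3) on log2 of the value plus 1 (spike-in scale) or 0.1 (enrichment), for protein-coding genes with at least 10 window reads over the 4 libraries, with Benjamini-Hochberg adjustment. A change was called at an adjusted p under 0.05. On simulated libraries with enrichment-scale fits, the H3K27me3 test recovered 0 of 200 genes changed 2-fold and 171 of 200 changed 4-fold. The H3K36me2 test recovered 145 and 200 of 200. At 4-fold, 11 and 1 unchanged genes were also called. Each run changed only 200 genes and gave all genes the same dispersion. In the H3K27me3 data 37.4% of genes were called higher and 11.7% lower, so the adjusted threshold was less strict. Changes under 2-fold passed there (Pitx3, log2 change -0.64), so the simulation sets no lower limit for the calls. Alternatives were other pseudocounts, no filter, other regions, all windows, the replicate number as a block, limma-voom on recovered reads and leaving out each library. Other statistics used Python 3.11.15 with numpy 2.4.6, pandas 2.3.3 and scipy 1.17.1.

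Genes given in full are, per family, the highest and lowest in untreated promoter H3K27me3, the 3 highest in body H3K36me3 and the 5 largest changes each way in each comparison. The genes and lists were chosen with earlier results of these data known.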

Additional observations from a re-analysis of the deposited data

How the results depend on the processing

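Of the 40 loci, the fall in H3K27me3 on the spike-in scale was called at 40 under every alternative on all 40, and at 28 of 28 promoters. H3K27me3 enrichment calls, 13 of 40, were 0 on promoters alone (28 genes) and 24 (16 higher, 8 lower) in limma-voom, where 42.6% of all genes were higher and 15.6% lower. Leaving out 1 library gave 0 to 26 calls, 0 of them without DMSO replicate 1 or 2, and over all genes 15470 and 15657 calls without inhibitor replicate 1 and 2, against 10443. Body over flanks, whose alternatives were all chosen after the data were seen, gave 9 calls with at least 10 window reads in every library and 0 to 26 with 1 library left out. Same-numbered libraries deviated together for H3K36me2 (r = 0.63 and 0.74 on the 2 scales over all genes) and little for H3K27me3 (0.16 and 0.09), but with 2 pairs and no label for it the numbers were not taken as pairing. With the replicate number as a block, limma called 6 loci in H3K36me2 on the spike-in scale and 15 on the enrichment scale (5 higher, 10 lower), against 0, and over all genes 4103 and 12825. For H3K27me3 the block gave 40 and 15 calls. With no share over all genes beside them, these 2 counts say nothing particular about the set. The cause of these changes was not tested, and some alternatives also held fewer libraries or windows.

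Median untreated promoter enrichment was 10.9 for H3K27me3, 1.68 for H3K36me2 and 1.67 for H3K36me3 within 2 kb of the start site. With all windows it was 10.97 for H3K27me3 and 1.51 for H3K36me3. As a multiple of the median promoter, H3K27me3 was 22.2, H3K36me2 1.10 and H3K36me3 1.40. H3K36me2 changes on the spike-in scale that were near 0 changed sign. With 1 library left out they ran from -0.45 to 0.15 at Lhx3, -0.59 to 0.40 at En2, -0.58 to 0.40 at Gbx1, -0.43 to 0.31 at Irx4, -0.43 to 0.35 at Cdx1, -0.0070 to 0.75 at Irx1 and -0.044 to 0.82 at Dlx5. On bodies alone they were 0.018 at Gbx1 and -0.018 at Nkx6-1, and on promoters alone 0.14 at Irx4. On the enrichment scale, bodies alone gave -0.061 at Irx1, -0.10 at Dlx5 and -0.20 at Nkx6-1. The depth after the inhibitor, 8 to 989 window reads per locus, limits what can be said of H3K27me3 at single promoters.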

Other observations

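Among the further homeobox genes, the 3 largest increases in H3K27me3 enrichment after the inhibitor were at Tgif1 (log2 change 2.99), Nkx1-1 (2.68) and Uncx (2.55). In untreated cells the promoter of Tgif1 had the lowest H3K27me3 of the 54 read (0.102), and those of Nkx1-1 (20.6) and Uncx (19.9) the highest. Background signal was not measured. These genes were singled out after their values were seen.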
